A study of Mus musculus with 4 samples.

Results

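The 10 genes described here are induced by interferons: Ifit1, Ifit2, Ifit3, Ifit3b, Isg15, Irf7, Rsad2, Oasl2, Usp18 and Ifi44. They were taken by symbol, 10 of 21885 genes in the tables, and none was chosen by a threshold on its values. Their RNA was counted on Visium arrays, grids of capture spots that each cover a small region with several cells, on 1 frozen section from each of 4 mouse hearts. All hearts came from Collagen1a1-GFP+ mice, a reporter line for fibroblasts, aged 8 to 12 weeks per the methods. The hearts were 1 uninjured control, 1 taken 3 days after myocardial infarction (3 dpi) by ligation of the left anterior descending artery, and 2 taken at 5 dpi. Replicate 1 at 5 dpi was labelled female and replicate 2 male, and the control and the 3 dpi heart were labelled female. The control was not described as sham-operated, so infarction and surgery cannot be told apart in any comparison with it.

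Interferons are cytokines released when cells sense viral or misplaced nucleic acid. Type I interferons bind a receptor that signals through the kinases Jak1 and Tyk2 to transcription factors, among them Stat2 and Irf9, that bind the interferon-stimulated response element of their target genes. In infarcted myocardium, nucleic acid from dying cells taken up by macrophages is a known trigger of this pathway. Irf7, a transcription factor, raises further interferon output, while Usp18, which removes Isg15 from proteins and blocks the receptor, dampens it. Isg15 is a ubiquitin-like modifier, Ifit1, Ifit2, Ifit3 and Ifit3b are RNA-binding proteins of the Ifit family, Rsad2 (viperin) is an antiviral enzyme, and Oasl2 is related to the oligoadenylate synthetases. Ifi44 is an interferon-induced cytoplasmic protein.

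The response element was searched for in the members' promoters as GAAANNGAAA, 2 GAAA repeats 2 bases apart, on either strand, in the window from 250 bases before to 50 bases after each start (RefSeq, build GRCm38.p6). Of 9 members with a promoter entry, 5 held a match, or 55.6%, against 3.99% of all 27025 genes with an entry. The stretches that hold the matches are shown because they are the feature shared by these members that their choice did not use. They are written along the gene's own strand with the matched bases in capitals, so a match on the opposite strand reads as its reverse complement. Overlapping matches in Isg15 run together.
Isg15, chr4:156200860-156200911 (minus strand): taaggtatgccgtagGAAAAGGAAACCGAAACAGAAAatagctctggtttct
Rsad2, chr12:26456548-26456587 (minus strand): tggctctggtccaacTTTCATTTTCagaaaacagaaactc
Ifit3, chr19:34583358-34583431 (plus strand): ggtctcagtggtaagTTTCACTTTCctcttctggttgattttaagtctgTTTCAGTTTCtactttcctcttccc
Ifit3b, chr19:34607754-34607827 (plus strand): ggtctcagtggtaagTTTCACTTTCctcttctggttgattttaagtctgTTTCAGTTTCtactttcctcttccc
Ifit1, chr19:34640770-34640828 (plus strand): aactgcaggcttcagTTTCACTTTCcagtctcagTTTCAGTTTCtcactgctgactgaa
The 74 bases shown for Ifit3 and Ifit3b are the same. Their transcripts are also close copies, so the split of UMIs between this pair is uncertain. No match was found in the entries of Ifit2, Irf7, Oasl2 and Ifi44. Among the interferon targets that are no members, 27 of 47 type I targets and 11 of 19 targets more typical of interferon gamma held a match.

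The sections differed in depth and in one label. Kept spots numbered 1146 in the control, 1741 at 3 dpi, 1535 in 5 dpi replicate 1 and 1423 in replicate 2, with 6250183 to 11010109 UMIs per section. Y-linked genes went against the sex labels at 5 dpi: 4 of them gave 704 UMIs in replicate 1, labelled female, and 1 in replicate 2, labelled male, against 0 in the control and at 3 dpi. The 12 cardiomyocyte markers of the heart label were above 0 in every zone. Levels are given as CPM, the usual scaling of counts to a fixed total, here over UMIs outside the mitochondrially encoded genes, and their intervals cover counting error only. Zones were rebuilt from the cardiomyocyte share of each spot: the infarct zone (IZ) is poor in cardiomyocyte RNA, border zone 2 (BZ2) lies within 2 spot steps of it, border zone 1 (BZ1) at 3 to 4 steps, and the remote zone (RZ) farther out.

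All 10 members had higher levels at 3 dpi than in the control, and 9 of 10 were higher in each 5 dpi section too. The exception was Rsad2. In 5 dpi replicate 2 the intervals of the ratio to the control included 1 for Ifit1 (0.75 to 1.58) and Ifit2 (0.94 to 2.27). Summed over the members, the level was 156 CPM in the control (95% Poisson interval 144 to 169), 869.7 at 3 dpi (849.8 to 889.9), 531 in 5 dpi replicate 1 (516 to 546) and 474 in replicate 2 (459 to 489). These are 5.57 (5.12 to 6.07), 3.40 (3.12 to 3.71) and 3.04 (2.78 to 3.32) times the control. The control and 3 dpi are 1 heart each, and these ratios between sections were not tested.

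Irf7, the transcription factor, stood farthest above the control. The control section had 19.5 CPM of it, the 3 dpi section 183, and 5 dpi replicates 1 and 2 had 126 and 127, or 9.40, 6.44 and 6.53 times the control. Oasl2 came next, with 9.09, 69.1, 47.2 and 47.3 CPM in the same order. Its 5 dpi sections were 5.197 ± 0.0077 times the control (SD, n = 2). Isg15, the ubiquitin-like modifier, was at 44.1, 294, 185 and 165 CPM, and at 5 dpi 3.97 ± 0.33 times the control (SD, n = 2). This SD too leaves out the counting error of the control. For Irf7 and Oasl2 the 5 dpi sections lay closer to each other than to either other section, and for Isg15 replicate 1 was also nearer to replicate 2 than to 3 dpi.

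The Ifit genes stood less far above the control at 3 dpi than these 3. Ifit3 measured 15.8, 91.3, 43.2 and 37.3 CPM in that order of sections. Ifit3b, its near copy, was at 5.88, 22.4, 10.3 and 9.62 CPM, and Ifit2 at 7.75, 24.1, 12.3 and 11.2 CPM. Ifit1 differed between the 5 dpi hearts, with 25.9 CPM in replicate 1 and 12.4 in replicate 2, against 40.0 at 3 dpi and 11.5 in the control. The interval of replicate 2 (10.11 to 15.02 CPM) overlapped that of the control (8.32 to 15.5).

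The remaining members split in the same way. Usp18, the negative regulator, was at 9.62, 46.1, 23.6 and 21.8 CPM, and Ifi44 at 7.22, 30.0, 18.0 and 17.9 CPM. Rsad2 measured 25.7 CPM in the control, 69.1 at 3 dpi, 39.8 in 5 dpi replicate 1 and 24.2 in replicate 2, so replicate 2 stood at 0.942 times the control. Over 2-fold higher than the control in each of the 3 infarcted sections were 6 of 10 members, all but Ifit1, Ifit2, Ifit3b and Rsad2. Of all 9304 genes at 10 CPM or more in at least 1 section, 24.6% met that rule. Ifit2, Ifit3b, Oasl2, Usp18 and Ifi44 were under 10 CPM in the control and passed this filter only through infarcted sections, so the count is a description. Of the other type I interferon targets 32 of 50 did, of the interferon gamma targets 8 of 18, of the nucleic acid sensors and adaptors 8 of 12, of the signal and transcription factors 4 of 11 and of the receptors 1 of 5.

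Transcripts of the interferons themselves were near the limit of detection. Over 21 interferon genes, the control and 5 dpi replicate 1 had 0 UMIs, which allows up to 0.802 and 0.314 CPM (3 counts over the section), 3 dpi had 4 UMIs and replicate 2 had 4. Those at 3 dpi were 3 UMIs of Ifng and 1 of Ifnb1, and those in replicate 2 were 2 of Ifng and 2 of Ifnz. This does not show that the ligands were absent.

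The share of spots with a member UMI followed the level. To compare sections at 1 depth, spots were thinned to 1534 non-mitochondrial UMIs, which left out 115, 226, 93 and 28 shallower spots. At that depth 20.1% of control spots held at least 1 member UMI, against 57.2% at 3 dpi, 45.2% in 5 dpi replicate 1 and 38.3% in replicate 2. Over all kept spots and without thinning the shares were 35.1%, 76.97%, 77.7% and 71.2%. In the IZ alone the thinned shares were 65.8%, 47.5% and 49.3%, and in the RZ 34.9%, 34.9% and 26.4%.

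Within infarcted hearts, 5 of the 10 members passed the test as higher in the infarct than in remote muscle, to unequal degrees. The sum was at 1061, 576 and 627 CPM in the IZ at 3 dpi and in 5 dpi replicates 1 and 2, and at 367, 316 and 251 CPM in the RZ. Zone sums of the 3 hearts were compared by edgeR's quasi-likelihood test with the section as a block and Benjamini-Hochberg adjustment over 9811 genes. Members higher in the IZ numbered 5 of 10, beside 28.2% of all genes tested, and 0 were lower, beside 25.9% of all. The median log2 fold change was 0.61 over the members and 0.08 over all genes. TMM scaling put these fold changes 0.38 below log2 ratios of CPM on average. Because each spot mixes cells, more cells that carry a transcript and more transcript per cell cannot be told apart.

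Irf7 changed most. In the IZ it was at 235, 141 and 186 CPM, against 67.0, 49.0 and 41.5 in the RZ of the same sections, a log2 fold change of 1.47 (SE 0.16, edgeR adjusted p = 1.35e-07). Every IZ value lay above every RZ value. Oasl2 was at 91.4, 53.1 and 65.7 CPM against 23.3, 27.5 and 18.9 (log2 fold change 1.24, SE 0.18, edgeR adjusted p = 4.4e-06), again without overlap. Isg15 had 366, 205 and 214 CPM in the IZ and 108, 89.5 and 92.3 in the RZ (0.99, SE 0.17, edgeR adjusted p = 6.12e-05), also without overlap.

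Of the Ifit family, the Ifit3 pair passed the test. Ifit3 was at 106, 45.4 and 46.9 CPM in the IZ and 43.7, 28.7 and 21.4 in the RZ (log2 fold change 0.68, SE 0.16, edgeR adjusted p = 0.00153), and the remote level at 3 dpi came close to the infarct levels at 5 dpi. Ifit3b rested on few UMIs, 9, 3 and 15 in the RZ of the 3 sections, and had a log2 fold change of 1.0 (SE 0.32, edgeR adjusted p = 0.0116). Both calls were lost at a stricter limit for low spots (edgeR adjusted p = 0.307 for Ifit3 and 0.910 for Ifit3b) and with no section block (0.166 and 0.0991), and without the 3 dpi heart Ifit3b fell below the filter on low counts and was not tested. Ifit1 (0.39, SE 0.30, edgeR adjusted p = 0.280) and Ifit2 (0.41, SE 0.32, edgeR adjusted p = 0.301) had higher CPM in the IZ in 3 of 3 sections but did not pass.

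Usp18 (log2 fold change 0.31, SE 0.20, edgeR adjusted p = 0.211) and Ifi44 (0.53, SE 0.24, edgeR adjusted p = 0.0625) also did not pass. With low spots set by the 1st percentile of the control, Ifit1, Ifit2, Usp18 and Ifi44 all passed as higher, which made 9 of 10 members. There 3594 of all genes were called in either direction, against 5299 in the main fit. Over all spots with the tissue flag Ifi44 passed, which made 6, beside 5389 genes called. Rsad2 had 74.7, 38.5 and 24.4 CPM in the IZ and 41.4, 52.5 and 26.6 in the RZ. It was higher in the infarct at 3 dpi and lower in it in both 5 dpi hearts, and its fitted log2 fold change was -0.27 (SE 0.28, edgeR adjusted p = 0.430). The value for Rsad2 depended on the zone rule and on the hearts. It was 0.47 (adjusted p = 0.290) where low spots were set by the 1st percentile of the control, and passed as lower at a stricter limit for low spots (-0.56, adjusted p = 0.0121) and without the 3 dpi heart (-0.66, adjusted p = 0.00759).

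RNA of macrophages and of other cell types moved with these zones. The summed level of 8 macrophage markers was 6999, 11107 and 10579 CPM in the IZ of the 3 sections and 1602, 1935 and 1477 in the RZ, and 8 of 8 markers passed the test upward, with none at 0. Neutrophil markers (6 genes) summed to 282, 266 and 237 CPM in the IZ and 27.1, 81.2 and 25.8 in the RZ, where Cxcr2 was at 0 in every section, and 4 of the 4 tested rose with a median log2 fold change of 2.48, against 1.81 for the macrophage markers. Of the 5 cycling genes 5 rose, and of 7 fibroblast markers 4 rose and 1 fell. Lower in the IZ were 4 of 6 endothelial, 3 of 5 mural and 4 of 4 erythroid genes. The 12 cardiomyocyte markers, which set the zones, fell by rule. Lymphocyte markers (8 genes) summed to 27.7, 29.1 and 34.1 CPM in the IZ and 4.52, 9.55 and 5.64 in the RZ, and 7 dendritic cell markers to 16.6, 15.7 and 16.7 against 8.28, 19.1 and 12.1. The part of these cell types in the members' zone differences was not tested. The summed macrophage markers were higher in both 5 dpi infarcts than at 3 dpi, and the summed members were lower there (576 and 627 against 1061 CPM). With 1 heart at 3 dpi, neither difference was tested.

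Next to the infarct the members varied between hearts. In BZ2 the sum was 737 CPM at 3 dpi, 296 in 5 dpi replicate 1 and 278 in replicate 2, so only the 3 dpi value stood well above its RZ. By the same edgeR fit, Irf7 was the only member higher in BZ2 than in the RZ, 1 of 10 beside 3.91% of all genes, and 0 were lower, beside 4.73%. Rsad2 passed as lower there at a stricter limit for low spots (-1.03, adjusted p = 0.00422) and without the 3 dpi heart (-1.64, adjusted p = 0.00177). Irf7 was at 140, 77.7 and 60.3 CPM in BZ2 (log2 fold change 0.68, SE 0.18, edgeR adjusted p = 0.0236), and this call was lost without the 3 dpi heart or without 5 dpi replicate 1 (adjusted p = 0.216 and 0.121), with no section block (0.226) and with the low limit at percentile 1 of the control spots (0.530). Between the IZ and BZ2, 3 of 10 members were higher in the IZ, beside 15.8% of all genes, and 0 lower, beside 18.4%. They were Isg15 (0.65, SE 0.18, adjusted p = 0.00734), Irf7 (0.79, SE 0.16, adjusted p = 0.000647) and Oasl2 (0.90, SE 0.19, adjusted p = 0.000728). The call for Isg15 was lost without either 5 dpi heart (adjusted p = 0.115 and 0.0516), and with no section block those for Isg15 and Irf7 were lost (0.186 and 0.0577). Calls were also gained, of Rsad2 as higher without the 3 dpi heart and of Ifit3 as higher at a stricter limit for low spots.

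In BZ1, edgeR's test against the RZ called 0 of 10 members at the adjusted threshold, beside 0.0612% of all genes called higher and 0.0102% lower. Higher with an unadjusted p under 0.05 were 4 members, Ifit3, Ifit3b, Isg15 and Irf7, beside 4.58% of all genes. The sum in BZ1 was 608, 559 and 300.0 CPM. In 5 dpi replicate 1 the BZ1 level (interval 486 to 641) overlapped that of its IZ (559 to 593) and was above its BZ2 (257 to 340).

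The time after infarction was set against the zone in 1 added fit, with 1 heart at 3 dpi and 2 at 5 dpi, so it measures the 3 dpi heart against the 5 dpi hearts and not time alone. It was chosen after these values were seen and assumes that the lone 3 dpi heart varies like the 5 dpi hearts, so its p-values hold no spread between 3 dpi hearts and cannot show a difference between the times. Rsad2 in BZ2 had log2 ratios to the RZ of 0.96 at 3 dpi and -1.81 and -0.94 at 5 dpi. The fitted difference was 2.43 (SE 0.46, edgeR adjusted p = 0.0439), 1 of 10 members beside 0.0306% of all genes in either direction. In BZ2 at 5 dpi it rested on 10 and 7 UMIs. Ifit1 had ratios of 1.31, -0.83 and -0.41 there and did not pass (edgeR adjusted p = 0.560). For the IZ against the RZ, 0 of 10 members passed this fit at the adjusted threshold, beside 2.75% of all genes, and 2 had an unadjusted p under 0.05, Rsad2 (fitted difference 1.12, adjusted p = 0.0740) and Ifit1 (1.27, adjusted p = 0.202).

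The zone difference was followed in finer steps along the cardiomyocyte content of spots. Spots were binned by their cardiomyocyte share relative to the 90th percentile of that share in their section, the same measure from which the zones were made, so these bins are not independent of the zones. At 3 dpi the summed members measured 1240 CPM in spots under 0.1, then 997.8, 950 and 749, and 401 in spots of 0.75 and over, a steady fall. In 5 dpi replicate 2 they measured 699, 519, 394, 309.5 and 237 CPM. Replicate 1 went from 638 to 382, 417, 298 and then 396 CPM, so its muscle-rich spots lay above the bin before them. The lowest bin was 2.55 ± 0.82 times the highest (SD, n = 3), and the 1099 control spots of 0.75 and over were at 154 CPM, below the same bin of every infarcted section.

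By distance, every bin inside the infarct border was above every bin outside it at 3 dpi and in 5 dpi replicate 2, but not in replicate 1, where the bin 3 to 4 steps outside lay above both bins within 4 steps inside. From more than 4 steps outside the IZ to more than 4 steps inside, the 3 dpi section measured 383, 666, 759, 1117, 1088 and 982 CPM. It reached its highest value within 2 steps inside the border. Replicate 2 at 5 dpi measured 250.003, 297, 279, 495, 825 and 626 CPM and was highest at 3 to 4 steps inside, and replicate 1 measured 324, 542, 303, 438, 455 and 616 CPM and was highest deep inside. The deep infarct was 2.32 ± 0.37 times the far muscle (SD, n = 3). Macrophage markers in the same 6 bins rose with depth into the infarct, to 8252 CPM from 1697 in the 3 dpi section and to 11385 CPM from 1478 in replicate 2, while in replicate 1 they peaked at 14794 CPM 3 to 4 steps inside, where the members were at 455.

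**Figure D1:**
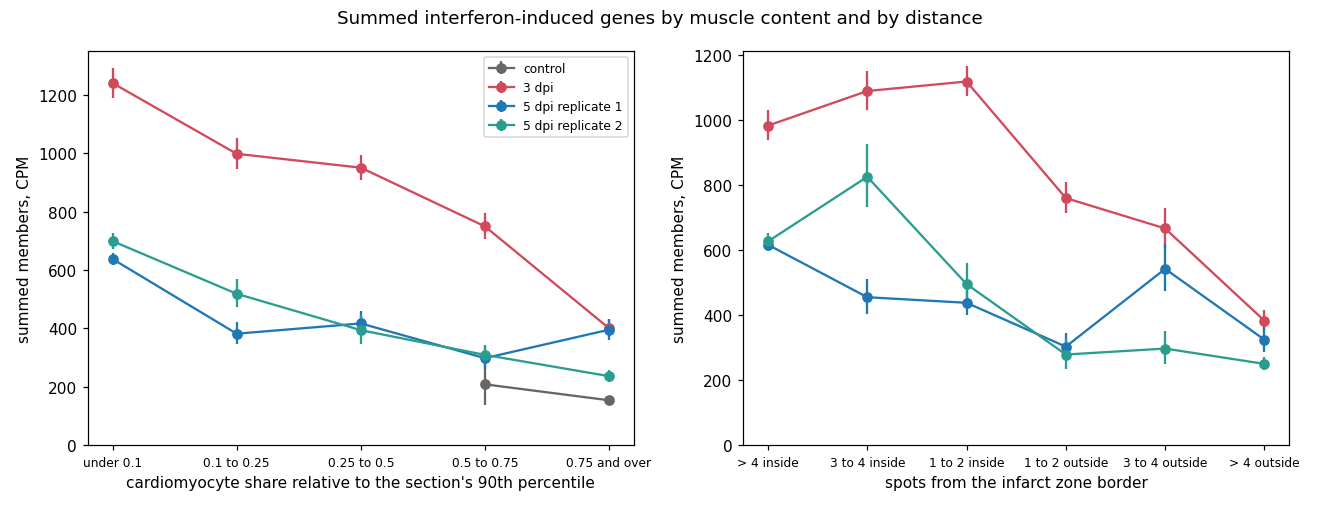
Summed members (CPM, with 95% Poisson intervals) by relative cardiomyocyte share of spots and by steps from the infarct border, 1 line per section. The 3 dpi section lies above both 5 dpi sections in every bin, and 5 dpi replicate 1 has a second rise 3 to 4 steps outside the infarct.

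The rest of the pathway was described from lists of interferon receptors, signal factors, sensors and targets, on the IZ against RZ comparison. Of 5 receptor genes tested, 2 were higher and 1 lower in the IZ. Ifngr1, a chain of the interferon gamma receptor, had a log2 fold change of 0.59 (SE 0.14, edgeR adjusted p = 0.00114) and Ifnar2, a chain of the type I receptor, 0.51 (SE 0.15, edgeR adjusted p = 0.00842), while Ifngr2 fell by 1.2 (SE 0.14, edgeR adjusted p = 2.87e-07). Of 11 signal and transcription factors, 7 rose and 0 fell. Irf5 (2.54), Irf8 (1.67) and Tyk2 (1.06) led them in log2 fold change. Irf5 and Irf8 are also known as factors of macrophages and other myeloid cells.

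Sensors of nucleic acid rose in 9 of 12 cases and fell in 1. The highest log2 fold changes were those of Ikbke (3.03), a kinase of the sensing pathway, Aim2 (2.50) and Zbp1 (1.92), which bind DNA or Z-form nucleic acid, and Tlr7 (1.79), a receptor of single-stranded RNA. Mavs, the mitochondrial adaptor of the RNA helicases, fell by 0.78. Of the other type I interferon targets 38 of 48 rose and 0 fell, with a median log2 fold change of 0.72, led by Oas3 (2.56), Ifi209 (2.34), Ifi207 (1.81) and Oas1a (1.79). Among 21 interferon gamma targets 9 rose and 1, Iigp1, fell by 0.93. The highest were Nlrc5 (1.59), which drives MHC class I genes, H2-K1 (1.08), Tap1 (1.07) and H2-D1 (1.03). The share that rose was 28.2% over all genes.

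In BZ2 against the RZ, 1 of 11 signal factors rose, Irf5 (1.35), and 2 of 48 type I targets, Oas1a (1.04) and Lgals3bp (0.53), with 0 of 5 receptors, 0 of 12 sensors and 0 of 21 gamma targets, beside 3.91% of all genes, and 0 fell. Between the IZ and BZ2, 23 of 48 type I targets, 9 of 21 interferon gamma targets, 6 of 11 signal factors, 4 of 12 sensors and 2 of 5 receptors were higher in the IZ, beside 15.8% of all genes. Lower were 1 gamma target, Iigp1 (-0.69), 1 sensor gene, Mavs (-0.61), and 1 receptor, Ifngr2 (-0.91), beside 18.4% of all genes. Oas1g (1.90), Slfn1 (1.77), Oas3 (1.63) and Slfn8 (1.39) led the type I targets.

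Over the 12 zones and the control, 13 points that share depth and base tissue within a section, the summed members followed 10 of 8245 genes most closely on log2(CPM + 1). These were Eef1g (Pearson r = 0.957), Gm2000, Ly6e (0.947), Ccl12 (0.945), Wbp11, Srrt, Oasl1, Ino80e, Stat2 and Purb (0.919). Ly6e, Oasl1 and Stat2 are known interferon targets, and Ccl12 is a monocyte chemokine.

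The members' UMIs fell in the same spots. For each member, its UMIs were multiplied in every spot with the UMIs of the other 9 and the total was divided by the total that an even rate per non-mitochondrial UMI gives, so that 1 means no shared location beyond depth. In the IZ the members' median ratio was 2.47 at 3 dpi, 3.49 in 5 dpi replicate 1 and 2.94 in replicate 2. Other genes with at least 50 positive spots had medians of 1.07, 0.941 and 0.989 and 99th percentiles of 1.66, 1.58 and 1.58. All 10 members were above that percentile in the IZ of each section, and all 10 outside the IZ too, where their medians were 2.28, 1.69 and 2.41. In the control the median was 2.27 and 9 of 10 were above, Usp18 (1.32) being the exception. Members were scored whatever their number of positive spots. At least 50 were held by 10, 10 and 9 members in the IZ, 9, 4 and 5 outside it and 4 in the control. For the rest, the comparison with other genes is not like for like.

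Irf7 (1.88, 2.01 and 2.33) and Oasl2 (1.86, 2.16 and 2.03) were among the 3 lowest members by this measure in the IZ of every infarcted section, whereas Ifit3b (3.38, 4.47 and 4.17) was the highest at 3 dpi and in replicate 2. Ifit2 was the highest in replicate 1, at 5.10. Outside the IZ, Irf7 (1.90, 1.26 and 2.12) and Oasl2 (1.69, 1.33 and 1.83) were again among the 3 lowest in each section. Ifit3b was the highest there in replicate 2 (4.35) but among the 3 lowest at 3 dpi (2.16) and in replicate 1 (1.29). In the control Irf7 (2.67) was second to Ifit3b (2.86). Irf7 and Oasl2 had the highest log2 fold changes of the members between the IZ and the RZ. Ifit3 and Ifit3b can share reads, which touches their ratios with each other.

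Adjacent spots were compared next. Pairs of neighbouring spots that were both positive for a member were divided by the pairs expected at an even rate per UMI. In the IZ the median over members was 1.36 at 3 dpi (10 members with at least 50 positive spots), 1.42 in 5 dpi replicate 1 (10) and 1.26 in replicate 2 (9). Other genes with the same range of positive spots had medians of 1.03, 1.02 and 1.03, and 1.82%, 3.42% and 9.13% of them reached the members' median. Ifit3b had the highest ratio in each section, 1.74, 2.98 and 2.24, and Isg15 and Irf7 lay between 1.04 and 1.18.

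Summed over the members, the ratio at 1 UMI or more was 1.02 ± 0.023 over whole sections (SD, n = 3) and 1.002 ± 0.0066 in the IZ. There 82.7% to 87.6% of spots were positive, which leaves little room for a higher ratio. At 2 UMIs or more it was 1.04, 1.12 and 1.10 in the IZ, 1.21, 1.14 and 1.27 over whole sections and 1.45, 1.22 and 1.33 outside the IZ, and 1.42 in the control.

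**Figure D2:**
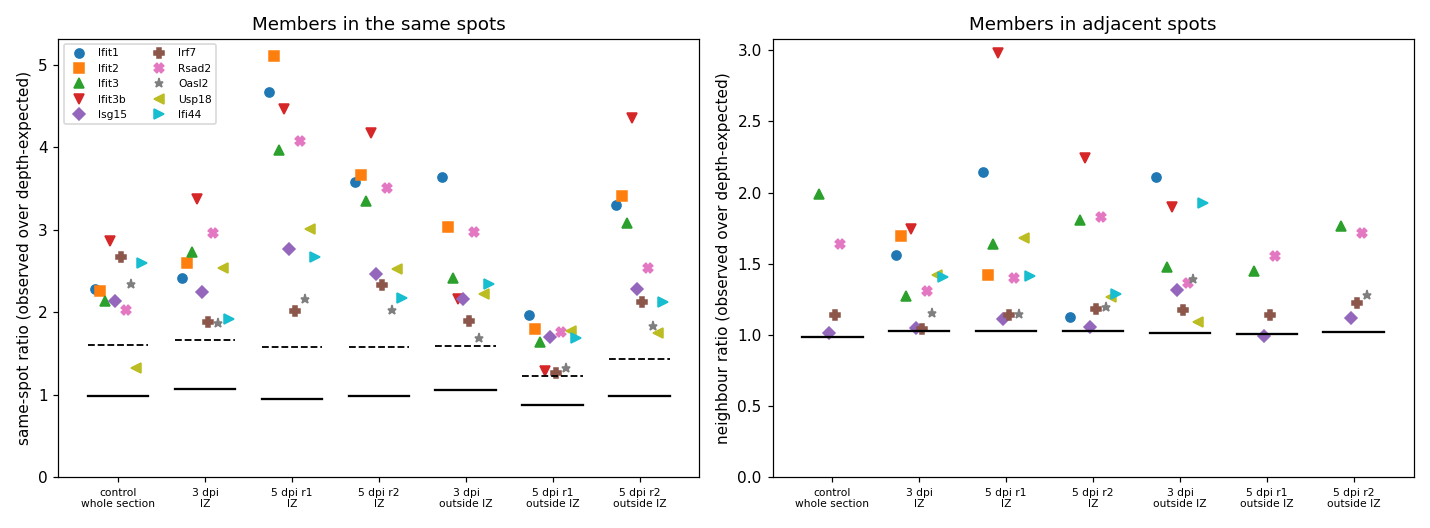
Left, same-spot ratio of each member with the sum of the others in the control, in the IZ and outside it, with the median (solid line) and 99th percentile (dashed) of other genes. Right, ratio of adjacent positive spots for members with at least 50 positive spots, with the median of other genes of the same range of positive spots. All members lie above the dashed line on the left except Usp18 in the control, and most points on the right lie above the line there. The lines on the left come from genes with at least 50 positive spots, which some members did not reach.

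The highest local levels lay in a small number of foci on the array, which held a minority of the member UMIs. A focus was at least 5 connected spots in which the summed rate, taken over each spot and its neighbours, was 3 or more times that of the region. These were chosen on the members' UMIs, so their member levels are a description. Because the rate takes in neighbours, 1 spot with many UMIs can lift those around it into a focus. Being connected is therefore partly set by the rule. In 1 control focus of 5 spots, 18 of the 25 UMIs lay in 1 spot. In the IZ there were 2 foci of 12 spots in all at 3 dpi, 2 of 43 spots in 5 dpi replicate 1 and 3 of 28 spots in replicate 2. They made up 1.36%, 4.05% and 4.09% of IZ spots and held 9.86%, 20.9% and 20.5% of its member UMIs. Their summed levels were 4325, 3140 and 2843 CPM, against 979.8, 473 and 522 in the rest of the IZ, and all 10 members had UMIs in 6 of these 7 foci. The largest had 30 spots, in replicate 1, with 587 member UMIs at 3170 CPM.

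Foci also lay in muscle. Outside the IZ there were 2 at 3 dpi (16 spots), 1 in 5 dpi replicate 1 (27 spots) and 4 in replicate 2 (30 spots), and the control had 3 (22 spots, 70 UMIs). Their levels were 2999.9, 1378, 1598 and 781 CPM against 494, 312, 222 and 141 in the remaining spots. The focus in replicate 1 had a median relative cardiomyocyte share of 0.960 and 17 of its 27 spots were in BZ1. Without it the BZ1 of that section fell from 559 to 431 CPM, and its IZ, without its foci, from 576 to 473.

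Features that did not choose the foci were compared with the remaining spots, with no test because foci are few and lie within sections. Cxcl10, an interferon-induced chemokine, was at 945, 509 and 342 CPM in the IZ foci against 67.3, 15.9 and 15.2 elsewhere in the IZ. In muscle it was at 353, 149 and 348 CPM against 26.0, 19.9 and 5.40. Zbp1, a sensor of Z-form nucleic acid, was at 166, 125 and 128 CPM in the IZ foci against 49.5, 30.4 and 35.7, and rested on 6, 0 and 2 UMIs in the muscle foci. Cardiomyocyte markers were lower in the IZ foci, at 8228, 1354 and 2104 CPM against 20760, 6933 and 8988, and so were markers of border cardiomyocytes, at 11451, 2919 and 6224 CPM against 20947, 12457 and 18407. Macrophage markers differed less, with 8609, 11259 and 12586 CPM in IZ foci against 6959, 11101 and 10484, and in muscle foci with 2023, 2420 and 2110 against 2144, 2465 and 1615.

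**Figure D3:**
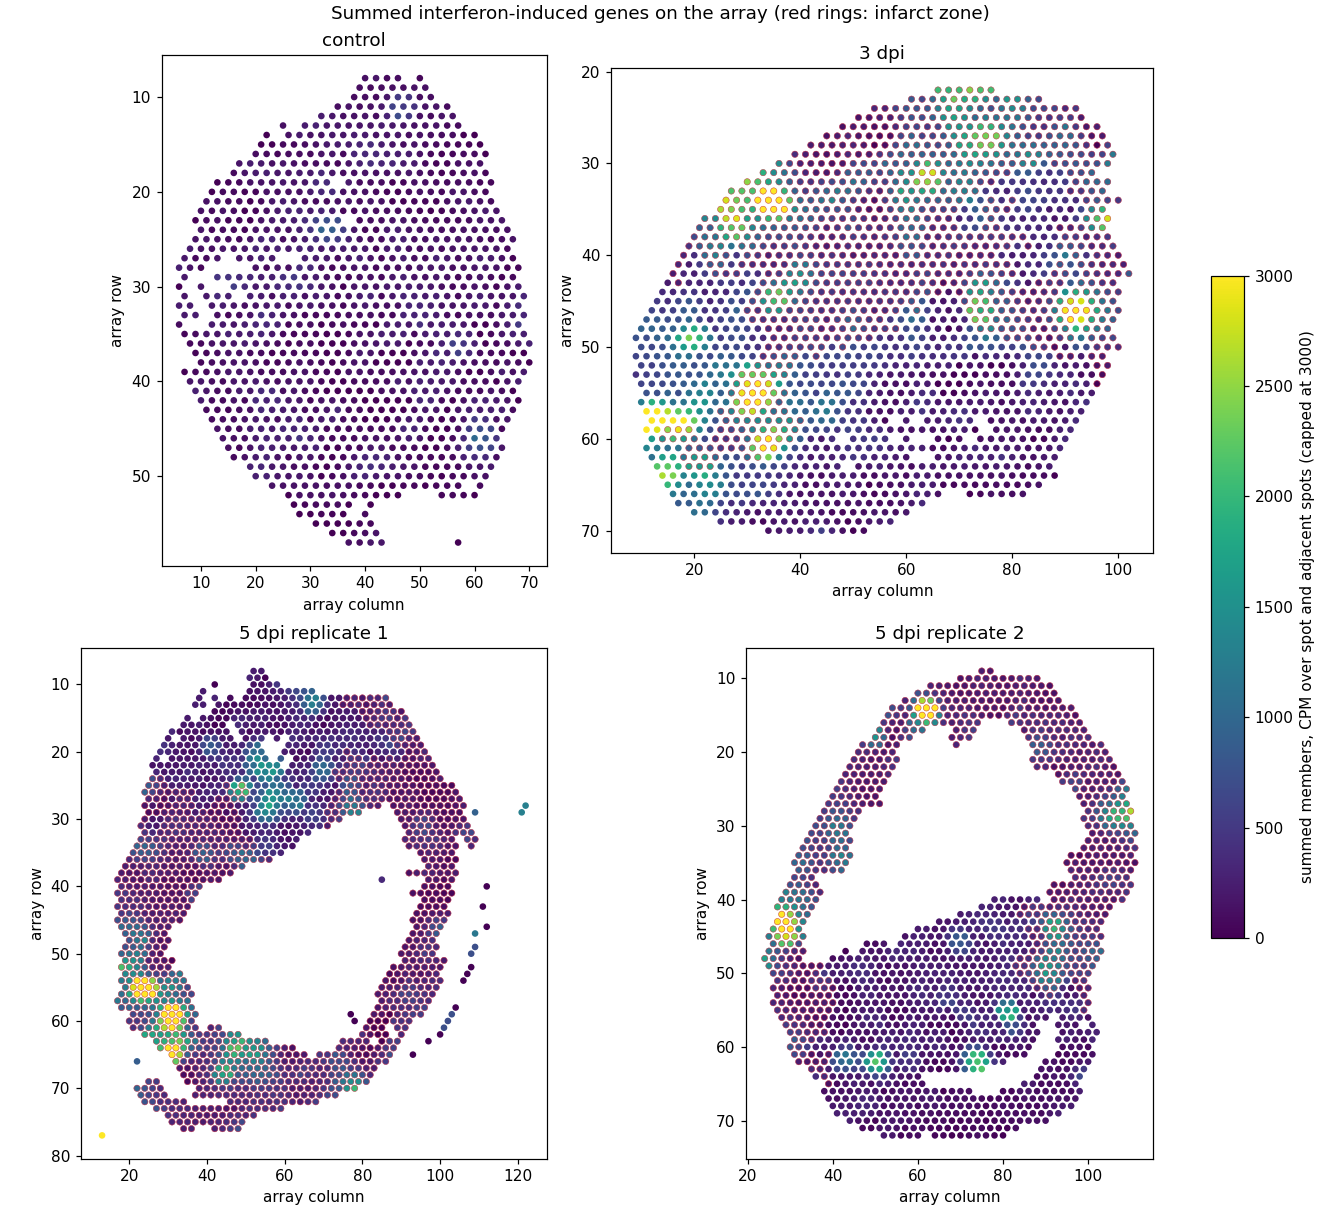
Summed member level over each kept spot and its adjacent spots (CPM, colour capped at 3000) on the array of each section. IZ spots are ringed in red and both axes are in array positions. Bright spots gather in small groups inside the infarct, and each infarcted section also holds groups outside it. Taking in adjacent spots spreads a single high spot over its neighbours, so such groups arise in part from the drawing.

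Spots rich in member RNA were then set against spots without it, to ask which other genes went with them. Rich spots had at least 2 member UMIs and free spots 0, and UMIs were summed per class and heart. In the IZ there were 634, 649 and 460 rich and 114, 184 and 85 free spots. The edgeR test, with the section as a block and the members left out, called 36 of 11049 genes higher in rich spots, 0.326%, and 11 lower, 0.0996%. DESeq2 called 11 higher and 4 lower, spots of the middle range of depth gave 6 and 1, the fit with no section block 0 and 0, and leaving out the 3 dpi heart, 5 dpi replicate 1 or replicate 2 gave 54 and 16, 18 and 13, and 21 and 16. Of the 36 higher genes, 18 were on the lists of type I or gamma targets. Rich spots were deeper, with median non-mitochondrial UMIs of 6572, 7931 and 7324.5 against 1811.5, 4071 and 5065, since a deeper spot more readily reaches 2 member UMIs.

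Cxcl10 had by far the highest log2 fold change among these, 4.47 (SE 0.39, edgeR adjusted p = 1.87e-11). It was at 103, 48.0 and 39.5 CPM in rich spots and 6.92, 2.31 and 0 in free spots. The free spots were fewer and shallower, so their values rest on very few UMIs and the size of this fold change is uncertain. Zbp1 followed with 2.19 (SE 0.28, edgeR adjusted p = 6.94e-07), then Phf11b (2.03), Oasl1 (1.97), Oas3 (1.93), Ms4a4c (1.81), Ccl12 (1.38), Dhx58 (1.37), Isg20 (1.31) and Ifi204 (1.25). H2-K1 and B2m, parts of MHC class I, were higher by 0.44 (SE 0.081, edgeR adjusted p = 0.000941) and 0.43 (SE 0.076, edgeR adjusted p = 0.000521). The lower genes named were Ckm (-0.69) and Myl3 (-0.44) of cardiomyocytes, the protease inhibitor Timp1 (-0.43), and Thbs1 (-0.47). Of the higher and lower genes named inside the IZ, DESeq2 did not call Oasl1, Oas3, Dhx58, Isg20, Ifi204, Thbs1 and H2-K1.

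Of the cell type markers, those of cardiomyocytes passed the test most often between these classes, as lower in rich spots. Macrophage markers summed to 7010, 11265 and 10814 CPM in rich spots and 6972, 11024 and 9593 in free spots. Of them 1 of 8 passed as higher, beside 0.326% of all genes. Of the 12 cardiomyocyte markers 4 were lower, beside 0.0996% of all genes, and 0 of 7 fibroblast, 0 of 6 endothelial and 0 of 4 neutrophil markers passed. Neutrophil markers summed to 262, 272 and 242 CPM in rich spots and 546, 269.6 and 150 in free spots, lower in rich spots at 3 dpi and higher in 5 dpi replicate 2. In spots of the middle range of depth, 7 genes were called, and of the genes named for this comparison Cxcl10, Zbp1 and Timp1 were among them. The part of depth in the remaining calls was not tested further.

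Outside the IZ, 334, 164 and 205 rich spots were set against 287, 142 and 321 free spots. Here 95 of 8562 genes were higher in rich spots, 1.11%, and 176 lower, 2.06%. Cxcl10 again led, at 2.22 (SE 0.27, edgeR adjusted p = 6.2e-06), with 53.3, 48.7 and 33.4 CPM against 12.2, 10.3 and 5.57. The guanylate-binding proteins Gbp7 (2.01) and Gbp3 (1.3), which are interferon gamma targets, came with it, and 7 of 18 interferon gamma targets and 11 of 41 type I targets were higher. Zbp1 (1.26) and Irf5 (1.15) were higher as well.

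Other leading genes were Kctd11 (1.31), Sp110 (1.28), Rnf19b (1.22), the stress cytokine Gdf15 (1.19), the Fc receptor Fcgr4 (1.17), the smooth muscle gene Cnn1 (1.16) and Ch25h (1.15), an enzyme that makes an oxysterol. The lowest were Igsf1 (-1.11), Efnb3 (-1.08), Ndufaf6 (-0.99), Lrrc27 (-0.97) and Cmbl (-0.93). Of the 12 cardiomyocyte markers 10 fell and of 8 genes of border cardiomyocytes 4 rose, while 0 of 8 macrophage markers passed. Fibroblast markers rose in 3 of 7 cases, cycling genes in 2 of 5 and endothelial markers in 1 of 6, and 1 of 4 erythroid genes fell. Rich spots lay nearer to the infarct, at a median of 2 steps against 6 at 3 dpi, 4 against 5 in replicate 1 and 7 against 8 in replicate 2, and the part of this distance in the result was not tested. Without replicate 2 at 5 dpi the test called 1 gene, Cxcl10, and without the 3 dpi heart 34 higher and 132 lower. DESeq2 called 20 higher and 88 lower and gave none of the genes named here an adjusted p, so none of them was among its calls. Spots of the middle range of depth gave 35 and 64, and the edgeR fit with no section block 1 and 0.

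**Figure D4:**
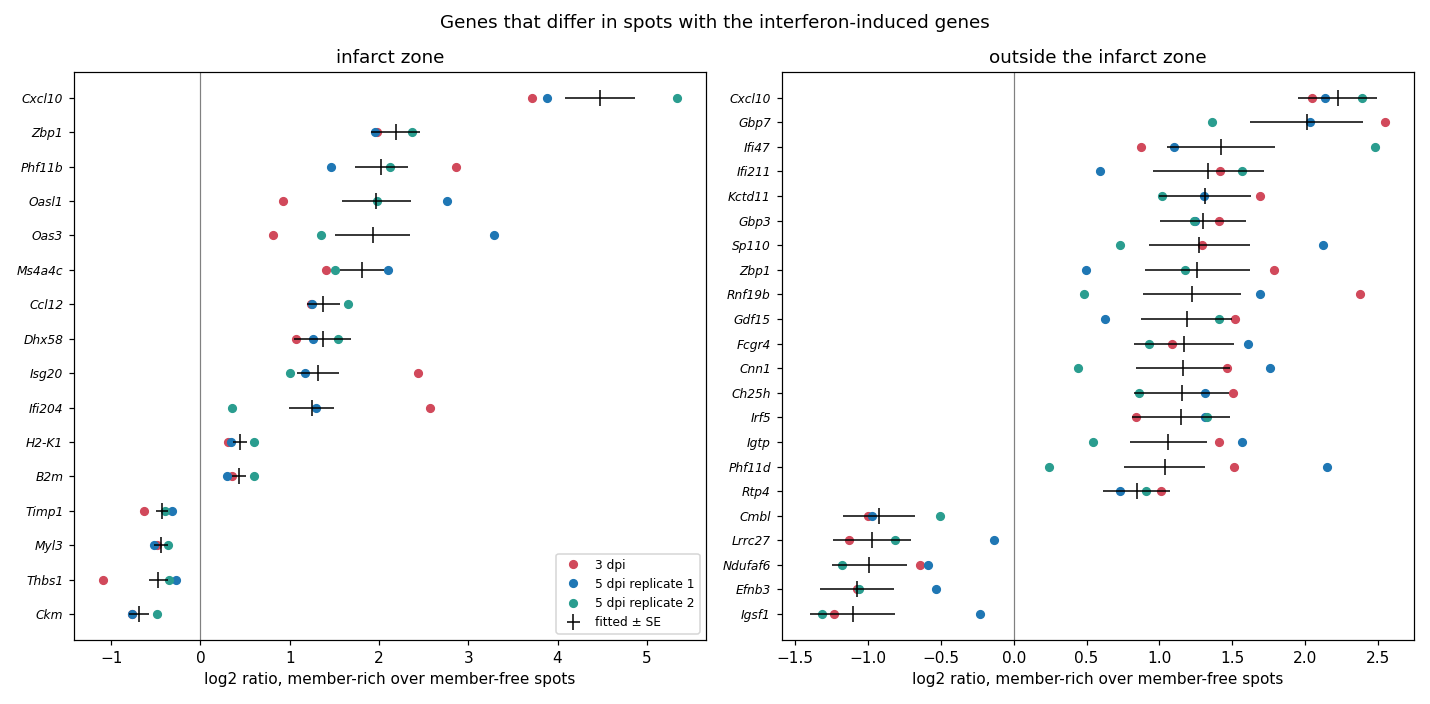
Log2 ratio of member-rich to member-free spots in each section (coloured points, CPM with a pseudocount of 1) and the fitted log2 fold change with its SE (black), inside and outside the IZ. Cxcl10 is the highest in both panels, with all 3 sections above 0.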

How the data were processed

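The authors deposited raw UMI counts per gene and spot from Space Ranger 1.3.1 (version per the file headers), with no normalization, and the array positions, with flags for spots they picked by hand as tissue. The labels name build mm10 and the methods an Ensembl 105 annotation, which is of another build, so the build of the counting is uncertain. Spots with the tissue flag, at least 500 UMIs, 250 genes and at most 50% mitochondrial UMIs were kept. Low spots had a cardiomyocyte share under 0.5 times the 90th percentile of their section, and connected patches of 10 or more formed the IZ.

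UMIs were summed per zone or class and section and fitted with edgeR 4.0.16 (quasi-likelihood test, TMM, default filter, section as a block; limma 3.58.1, R 4.3.3), with Benjamini-Hochberg adjustment and a threshold of 0.05. DESeq2 1.42.0 was an alternative. P-values measure the spread between 3 hearts. On simulated data with known fold changes the fits were checked before use. Tables and figures were made with matplotlib 3.10.9, pandas 2.3.3, SciPy 1.17.1 and NumPy 2.4.6 under Python 3.11.15.

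The members, lists and comparisons were chosen with earlier results of these data known. Named beside the members were, for each interferon list and zone comparison, up to 4 genes with the highest and 2 with the lowest log2 fold change past the threshold, and for rich spots the 10 highest and 5 lowest past it with 1 direction in 3 of 3 sections and at least 20 CPM in 1 class. H2-K1, B2m, Irf5 and Zbp1 come from the lists, and some genes that met these rules are not reported here. The fit of 3 dpi against 5 dpi, the same-spot ratio, the foci, the 2-fold rule against the control and the class of at least 5 member UMIs were added after seeing the data. Mx1, Mx2 and Oas1b are not analysed here. The 623 spots off the tissue mask of 5 dpi replicate 2 entered no zone, class or section value. Their level is given only in the closing section, beside those of the control and of the section's kept spots.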

Additional observations from a re-analysis of the deposited data

Results flagged for a closer look

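The zone difference of a few members went in opposite directions at 3 dpi and in both 5 dpi hearts. For Rsad2, the log2 ratio of IZ to RZ at 3 dpi was 1.13 above the mean of the 5 dpi hearts, and that of BZ2 to RZ was 2.33 above it, and for Ifit1 and Usp18 the BZ2 to RZ ratios at 3 dpi were 1.93 and 0.81 above the 5 dpi mean. The fit added after seeing these ratios holds no spread between 3 dpi hearts, of which there is 1, so its edgeR adjusted p-values (0.0439 for Rsad2 in BZ2 and 0.0740 in the IZ, with neither of the other 2 passing) cannot show a difference between the times.

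Member RNA was also found in the 623 spots of 5 dpi replicate 2 that carry no tissue flag. There the members summed to 418 CPM, above the 156 CPM of the control section and below the 474 CPM of the kept spots of their own section. Irf7 was at 126, Isg15 at 122, Oasl2 at 45.8 and Usp18 at 22.9 CPM, against 127, 165, 47.3 and 21.8 in those kept spots. These spots are not described by the labels.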

How the results depend on the processing

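The calls rest on 3 hearts, zones were rebuilt and the control has no replicate. Members higher in the IZ than the RZ were 5, 3 with a stricter limit for low spots, 3 with no section block, 9 with the low limit at percentile 1 of the control spots, 6 over all spots with the tissue flag, and 4 to 5 when 1 heart was left out. Rsad2 passed the test as lower with the stricter limit (adjusted p = 0.0121) and without the 3 dpi heart (adjusted p = 0.00759). In BZ2 against the RZ, where Rsad2 passed as lower under the same settings, the count of higher members was 1, with no section block 0, with percentile 1 of the control 2 (Ifit1 and Isg15, without Irf7), and 0 to 1 with 1 heart left out. For the IZ against BZ2 it was 3, with no section block 1, and 2 to 4 with 1 heart left out. No paired analysis was possible because the labels number no replicates across groups, which concerns comparisons between groups of hearts. Within hearts, the section block paired the zones in every zone fit other than the one with no section block.

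Genes called in rich IZ spots were 47, by DESeq2 15, at middle depth 7, with no section block 0 (the smallest adjusted p was above the threshold), at 5 or more UMIs 121, and 31 to 70 with 1 heart left out. Outside the IZ they were 271, by DESeq2 108, at middle depth 99, with no section block 1, at 5 or more UMIs 83, and 1 to 232 with 1 heart left out, the 1 without 5 dpi replicate 2.

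Over all UMIs, the sums were 7.31, 4.92 and 4.35 times the control at 3 dpi and in 5 dpi replicates 1 and 2. Without Irf7 they were 5.03, 2.97 and 2.54, without Rsad2 6.14, 3.77 and 3.45, and at 5 dpi without Isg15 3.09 and 2.76. Without cardiomyocyte markers in the denominator replicate 1 was at 3.12. The ratio of adjacent positive spots was 1.2 over whole sections at 2 or more UMIs and 1.05 without Isg15, and in the IZ 1.09 and 1.01.

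Log2 fold changes that turned sign were all of uncalled values, and the cause was not tested. The ranges with 1 heart left out also hold called values that kept their sign. These are -1.64 and 0.98 for Rsad2, both without the 3 dpi heart. At percentile 1 of the control, Rsad2 had 0.47 for the IZ and 0.96 for BZ2 against the RZ and -0.49 for the IZ against BZ2, Usp18 had 0.55 for BZ2 against the RZ, and Ifit1 -0.20 for the IZ against BZ2. At the stricter limit, BZ2 against the RZ gave -0.37 for Ifit1, -0.29 for Ifit3 and -0.079 for Ifit3b, and DESeq2 gave -0.027 for Ifit1. With no section block, Usp18 had 0.10 for BZ2 against the RZ, and Ifit3b -0.18, Rsad2 -0.15 and Ifi44 -0.038 for the IZ against BZ2. Over all spots with the tissue flag these 4 values were 0.0027, -0.042, -0.094 and -0.071. With 1 heart left out, Ifit1 ran from -0.069 to 0.61 for the IZ against the RZ. For BZ2 against the RZ, Ifit1 ran from -0.86 to 0.55, Isg15 from -0.025 to 0.51, Rsad2 from -1.64 to 0.19 and Usp18 from -0.48 to 0.11. For the IZ against BZ2, Ifit3b ran from -0.11 to -0.051 without either 5 dpi heart (below the filter without the 3 dpi heart), Rsad2 from -0.27 to 0.98 and Ifi44 from -0.064 to 0.38.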
